A study of Rattus norvegicus with 12 samples.

Results

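The miRs described here are those of neurons and myelinating glia on a rodent TaqMan card, named as mmu-miR-9, mmu-miR-129-3p and mmu-miR-338-3p, with mmu-miR-128a and mmu-miR-218 added where the card gave a value. The rule picks them by assay name and uses no measured value, though it was written with earlier results of these data known. Values were present for 4 of the 5 names, among 154 miR assays in all, and mmu-miR-128a has no row in the table of cycle thresholds.

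The material was the dorsal root ganglion (DRG), the cluster of sensory neuron cell bodies beside the spinal cord, of adult male Sprague-Dawley rats on Day 23 after surgery. In Sural-SNI (spared nerve injury) the tibial and common peroneal branches of the sciatic nerve were ligated and cut and the sural branch was left whole. In Tibial-SNI the common peroneal and sural branches were cut and the tibial branch was left whole. In Sham the nerve was exposed and no branch was cut. Each group holds 4 arrays, 2 of L3-DRG and 2 of L4-DRG, and the labels number the arrays of a group and level 1 and 2 without saying what a number stands for. As background, sciatic neurons lie mostly in L4-DRG and L5-DRG, while L3-DRG holds those of the saphenous nerve, and the study describes neurons with cut axons in L4-DRG and L5-DRG of SNI rats but not in L3-DRG. Rats were perfused with cold artificial cerebrospinal fluid before single ganglia were taken. A whole ganglion mixes neurons and glia, and in such tissue fewer cells of a type and less RNA per cell cannot be told apart. Per the study, each array read an individual ganglion of the operated side. A rat has a single ganglion of a level on that side, so 2 arrays that share group and level came from different rats. Whether a rat gave both levels is not stated, so the 4 arrays of a group may come from only 2 rats. The tests measure only the spread between these arrays, part of which may be technical.

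MiRs are short RNAs that guide Argonaute proteins to messenger RNAs, mostly by pairing of the seed near the 5′ end of the miR. MiR-9 is a miR of the nervous system known for its part in neurogenesis, where it acts against transcription factors of progenitor cells. MiR-129 and miR-218 are enriched in neurons, and miR-218 is best known from motor neurons. MiR-338 lies in an intron of Aatk and is known from the maturation of oligodendrocytes, and it is also found in Schwann cells, the myelinating glia of peripheral nerve.

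The mature sequences are shown because the 4 assays read different miRs and no seed is shared between them. They were taken from RefSeq (GRCr8) by the rat name, 5′ to 3′, with the seed (bases 2 to 8) in capitals.
rno-miR-9a-5p: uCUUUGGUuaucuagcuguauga
rno-miR-129-1-3p: aAGCCCUUaccccaaaaag
rno-miR-129-2-3p: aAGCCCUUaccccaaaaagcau
rno-miR-338-3p: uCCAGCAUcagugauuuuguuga
rno-miR-218a-5p: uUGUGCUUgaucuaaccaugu
The assays carry mouse names, and the sequence each assay was designed for was not used here. The name mmu-miR-129-3p matched 2 rat miRs, which share the first 19 bases and the seed and differ in length, so its level may be that of either or of both.

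In GRCr8 the sequence of miR-9a-5p lies at 3 loci, chr1:142849415-142849437 on the plus strand within the long noncoding gene Mir9-3hg, chr2:15933307-15933329 on the plus strand within Mir9-2hg, and chr2:175974986-175975008 on the plus strand within the long noncoding gene LOC100911992. MiR-129-1-3p lies at chr4:58589759-58589777 on the plus strand within the long noncoding gene LOC120102250, and miR-129-2-3p at chr3:100657405-100657426 on the minus strand with no other gene across it. MiR-338-3p lies at chr10:105796345-105796367 on the minus strand within the span of Aatk. MiR-218a-5p lies at chr10:20572547-20572567 on the plus strand within the span of Slit3 and at chr14:66922413-66922433 on the minus strand within the span of Slit2, the genes of a pair of secreted axon guidance proteins. A mature level therefore sums over 3 loci for miR-9 and over 2 for miR-218, and the loci cannot be told apart.

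The measurement was the cycle threshold (Ct), the PCR cycle at which fluorescence crosses a set line, so a lower Ct means more template and 1 cycle is 1 unit on the log2 scale. Levels are given as −ΔCt, the mean Ct of 3 reference assays minus the Ct of the miR. The mean Ct over all miRs was later in each array of replicate 1 than in any array of replicate 2, at 29.9 against 27.8 on average, although 6 of the 154 assays were earlier in replicate 1. The reference assays did not move together. MammU6 lay between 16.7 and 18.3 in replicate 1 and between 18.3 and 18.7 in replicate 2, while snoRNA135 lay between 31.9 and 34.0 in replicate 1 and between 28.1 and 29.6 in replicate 2, and U87 between 26.0 and 28.3 and between 25.4 and 26.1. Of the 15 names on the list of neuronal miRs 8 were measured in all arrays, and of the 4 names of myelinating glia only miR-338-3p. Since the table keeps only miRs detected on every array, detection on each card was set by that filter and is no test of the tissue. Other lists also had values, for 3 of 4 names of skeletal muscle, 2 of 2 of endothelium and 4 of 5 of leukocytes. The glial side rests on 1 assay.

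The 4 miRs fell into an early and a late pair. By mean Ct miR-9 was 23rd and miR-218 was 29th of the 154 assays, and over single arrays their ranks stayed between 18 and 36 and between 24 and 35. MiR-338-3p was 104th, with ranks from 67 to 154, and miR-129-3p was 129th, with ranks from 108 to 151. Assays differ in how well they amplify, so these ranks order Ct values and not numbers of molecules. The late pair also varied more. The SD of −ΔCt over the 12 arrays was 0.48 for miR-9 and 0.45 for miR-218, below the median of 0.74 over all miRs, against 1.08 for miR-129-3p and 2.30 for miR-338-3p.

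MiR-9 was higher in L3-DRG of both SNI groups than in its Sham arrays, and lower in L4-DRG. In L3-DRG its −ΔCt was −1.60 and −1.20 in Sham replicates 1 and 2, −0.87 and −0.44 in the Sural-SNI arrays, and −0.60 and −0.53 in the Tibial-SNI arrays. The SNI and Sham arrays of L3-DRG did not overlap. How many of all miRs separated in this way was not counted, and the median miR also rose there, by 0.28 to 0.63 in the SNI arrays. In L4-DRG it was −1.17 and −0.05 in Sham, −1.37 and −0.58 in the Sural-SNI arrays, and −1.42 and −1.23 in those of Tibial-SNI. In L4-DRG the groups overlapped, because Sham replicate 1 lay within the SNI range. Against the Sham array of the same level and number, the Sural-SNI arrays of L3-DRG had a log2(fold change) of 0.73 and 0.75 and the Tibial-SNI arrays one of 1.00 and 0.67. In L4-DRG the values were −0.19 and −0.53 for Sural-SNI and −0.25 and −1.18 for Tibial-SNI.

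MiR-218 followed the same course within a smaller range. In L3-DRG its −ΔCt was −1.90 and −1.33 in Sham, −1.18 and −0.63 with Sural-SNI, and −0.86 and −0.81 with Tibial-SNI. In L4-DRG it was −1.46 and −0.49 in Sham, −1.61 and −0.67 with Sural-SNI, and −1.48 and −0.82 with Tibial-SNI. The L3-DRG arrays of Sham again lay below all 4 SNI arrays, a separation not counted over all miRs, and the L4-DRG arrays overlapped. The log2(fold change) was 0.72 and 0.69 in L3-DRG of Sural-SNI, 1.04 and 0.51 in L3-DRG of Tibial-SNI, −0.15 and −0.19 in L4-DRG of Sural-SNI, and −0.02 and −0.33 in L4-DRG of Tibial-SNI.

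**Figure D1:**
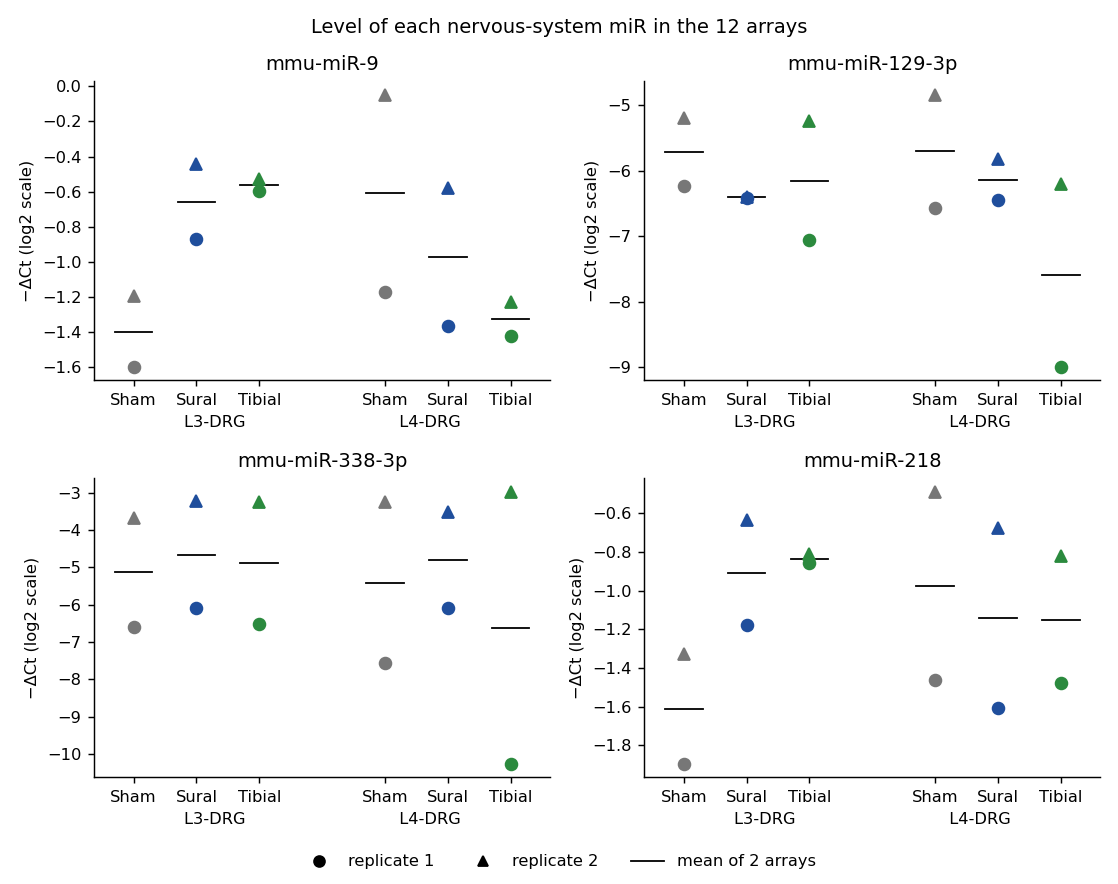
−ΔCt (log2 scale) of the 4 miRs in each of the 12 arrays, by DRG level and group, with circles for replicate 1, triangles for replicate 2 and a line at the mean of the 2 arrays; the vertical scale differs between panels. MiR-9 and miR-218 are lowest in L3-DRG of Sham, and miR-338-3p splits by replicate number, with L4-DRG Tibial-SNI replicate 1 at −10.26.

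MiR-9 and miR-218 were thus above Sham in 4 of 4 SNI arrays of L3-DRG and below Sham in 4 of 4 of L4-DRG. Of all miRs 10 of 154 had this pattern, or 6.49%, and 0 had the opposite one. The median of all miRs moved the same way in part, with a median log2(fold change) from 0.28 to 0.63 in the SNI arrays of L3-DRG and from −0.08 to 0.09 in those of L4-DRG. With each array's mean over all miRs in place of the 3 reference assays, the pattern was held by 6 miRs, miR-9 and miR-218 among them. On that scale the log2(fold change) of miR-9 was 0.28 to 0.55 in L3-DRG and −1.10 to −0.21 in L4-DRG, and that of miR-218 was 0.21 to 0.48 and −0.25 to −0.12.

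The difference between the levels was tested after these values had been seen, as both SNI groups against Sham in L4-DRG minus the same in L3-DRG. For miR-9 it was −1.33 (SE 0.64, 95% confidence interval −2.79 to 0.13, limma adjusted p = 0.995). With the replicate number added to the fit its interval was −2.22 to −0.43, with an adjusted p of 0.291. For miR-218 the difference was −0.91 (SE 0.68, interval −2.47 to 0.65, adjusted p = 0.995). Its interval was −1.74 to −0.08 with the replicate number added (adjusted p = 0.446). Without L4-DRG Sham replicate 2 the difference was −0.77 for miR-9 and −0.42 for miR-218, and leaving out L4-DRG Sham replicate 1 in its place gave −1.89 and −1.40. Both fits lacked a term for the replicate number, so the lost array also unbalanced the numbers. Neither miR passed the threshold of 0.05 over all miRs. Here limma called 0 of 154 miRs (0%), with 2 at an unadjusted p under 0.05. Adding the replicate number raised these 2 to 15, and the calls stayed at 0. Intervals that exclude 0 in that fit were thus not particular to miR-9 and miR-218. All 4 SNI arrays of a level were set against the same 2 Sham arrays, so these 4 differences are not independent. In Sham itself the mean −ΔCt of miR-9 was −1.40 ± 0.28 (SD, n = 2) in L3-DRG and −0.61 ± 0.80 in L4-DRG, and that of miR-218 was −1.61 ± 0.40 and −0.98 ± 0.69.

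**Figure D2:**
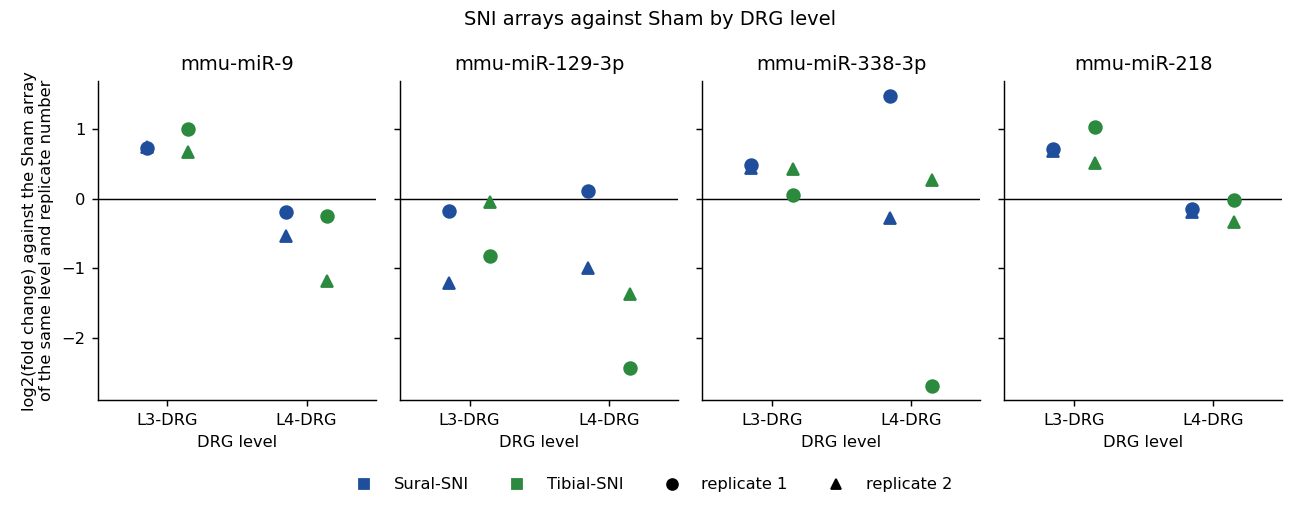
Log2(fold change) of each SNI array against its Sham array (same DRG level, same number), for the 4 miRs, in blue for Sural-SNI and green for Tibial-SNI, with circles for replicate 1 and triangles for replicate 2. MiR-9 and miR-218 are above 0 in all 4 arrays of L3-DRG and below 0 in all 4 of L4-DRG, and the lowest value of the plot is −2.69, for miR-338-3p in L4-DRG Tibial-SNI replicate 1.

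MiR-129-3p was below its Sham array in 3 of 4 Sural-SNI arrays and in 4 of 4 Tibial-SNI arrays. In L3-DRG its −ΔCt was −6.24 and −5.19 in Sham, −6.41 and −6.40 with Sural-SNI, and −7.06 and −5.24 with Tibial-SNI. In L4-DRG it was −6.57 and −4.84 in Sham, −6.45 and −5.83 with Sural-SNI, and −9.00 and −6.20 with Tibial-SNI. In L3-DRG both Sural-SNI arrays lay below both Sham arrays, a separation not counted over all miRs. Tibial-SNI replicate 1 lay below all of these and replicate 2 between the Sham arrays. In L4-DRG the ranges overlapped. The −9.00 was the lowest of the 12 arrays, and the next lowest was −7.06. The log2(fold change) in Sural-SNI was −0.17 and −1.21 in L3-DRG and 0.11 and −0.99 in L4-DRG, and in Tibial-SNI it was −0.83 and −0.05 in L3-DRG and −2.43 and −1.36 in L4-DRG.

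Of all miRs 5 of 154 (3.25%) were below Sham in all 4 Tibial-SNI arrays. The difference of miR-129-3p between Tibial-SNI and Sham was −1.17 (SE 0.72, 95% confidence interval −2.76 to 0.42, limma adjusted p = 0.997, exact two-sided permutation p = 0.229). With the replicate block the interval was −2.28 to −0.05 and the adjusted p was 0.428. Without L4-DRG Tibial-SNI replicate 1 the difference was −0.44, the smallest when each array was left out in turn, and the largest was −1.71. No term for the replicate number was in these fits, so a lost array also unbalanced the numbers. Sural-SNI was lower than Sham by 0.57 on average, with an interval from −2.15 to 1.02.

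MiR-338-3p, the glial member, differed most between the replicate numbers. Its Ct lay between 31.0 and 36.7 in the 6 arrays of replicate 1 and between 27.4 and 28.5 in the 6 of replicate 2. The mean difference of 5.41 cycles was the 5th largest of the 154 assays, whose median was 2.05, while miR-129-3p stood at 2.87, miR-218 at 2.15 and miR-9 at 2.03. Replicate 1 was later for miR-338-3p in all 6 pairs of arrays, by 3.55 to 9.07 cycles. The 4 assays with a larger difference were those of miR-132, miR-20a, miR-27b and miR-126-5p, of which miR-132 is on the neuronal list and miR-126-5p on the endothelial one.

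**Figure D3:**
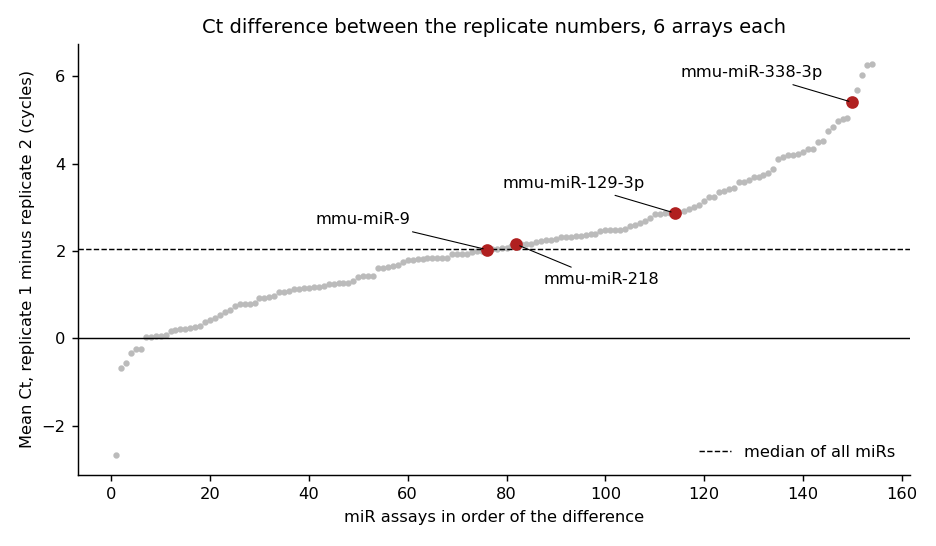
Mean Ct of the 6 arrays of replicate 1 minus that of the 6 arrays of replicate 2, in cycles, for every miR assay in rising order, with the nervous-system miRs in red and the median of all miRs dashed. MiR-338-3p stands 5th from the top at 5.41 cycles, while miR-9 and miR-218 lie at the median of 2.05.

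In replicate 2 the −ΔCt of miR-338-3p was −3.67 in Sham, −3.22 in Sural-SNI and −3.24 in Tibial-SNI of L3-DRG, and −3.25, −3.52 and −2.97 in L4-DRG. These 6 arrays were close to each other, at −3.31 ± 0.25 (SD, n = 6). In replicate 1 it was −6.59, −6.10 and −6.52 in L3-DRG and −7.57, −6.08 and −10.26 in L4-DRG, with a mean of −7.19 ± 1.60 (SD, n = 6). The value of −10.26 belongs to Tibial-SNI and came from a Ct of 36.7, the latest of all 154 assays on that array. The log2(fold change) was 0.49 and 0.45 in L3-DRG and 1.49 and −0.27 in L4-DRG of Sural-SNI, and 0.06 and 0.43 in L3-DRG and −2.69 and 0.28 in L4-DRG of Tibial-SNI.

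Tibial-SNI and Sural-SNI therefore differed in miR-338-3p by −2.30 on average within replicate 1 and by 0.26 within replicate 2. Over both numbers the difference was −1.02 (SE 0.72, 95% confidence interval −2.66 to 0.63, limma adjusted p = 0.995). Tibial-SNI against Sham was −0.48 with all arrays, 1.08 without L4-DRG Tibial-SNI replicate 1 and 0.41 without L4-DRG Sham replicate 2. L4-DRG against L3-DRG was −0.72 with all arrays and 0.32 without L4-DRG Tibial-SNI replicate 1. The sign of both differences thus turned when a single array was left out. These fits held no term for the replicate number, which shifted the −ΔCt of miR-338-3p by 3.87, so a lost array also unbalanced the numbers. Without a replicate 2 array of Tibial-SNI, the difference against Sham was −1.29 (L3-DRG) or −1.66 (L4-DRG). Paired with its Sham array, each Tibial-SNI array other than L4-DRG replicate 1 read 0.06 to 0.43.

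The same array, L4-DRG Tibial-SNI replicate 1, was the lowest of the 12 for both members of the late pair, and it also held the highest level of every skeletal muscle assay. The 4 assays of that list (miR-1 as a rat and as a mouse assay, miR-133a and miR-133b) had a summed level of 4.41 on the −ΔCt scale there and −0.17 to 2.19 in the other 11 arrays. The rat assay of miR-1 read 1.53 there and −3.64 to −1.74 elsewhere, and miR-133a read 4.17 there and −0.39 to 2.05 elsewhere. Of the list, miR-206 has no value. Over the groups the summed level ranged between 0.59 and 1.73 for Sham, −0.17 and 1.35 for Sural-SNI, and 0.01 and 4.41 for Tibial-SNI. The summed endothelial list was also highest in this array, at 3.77 against 2.63 to 3.73 in the others, though its miR-126-5p lay within their range. The neuronal list stood at 1.87 in this array against 1.88 to 2.93 in the others. Against the mean of all miRs it read 5.84, within the 5.27 to 6.62 of the others. MiR-9 at −1.42 and miR-218 at −1.48 lay within the range of the other arrays. The part of muscle RNA in the values of miR-338-3p and miR-129-3p was not tested. The replicate 2 array of the same group and level had no such value of miR-338-3p, at −2.97 the highest of the 12.

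None of the 4 miRs passed the test in any of the 5 planned comparisons. Between Tibial-SNI and Sural-SNI limma called 1 of 154 miRs at an adjusted p under 0.05, or 0.649%, and 4 had an unadjusted p under 0.05. The call, of miR-325, is no member, and it was lost when the replicate block was added (0 calls). Sural-SNI against Sham, Tibial-SNI against Sham, L4-DRG against L3-DRG, and the difference between the levels in Tibial-SNI against Sural-SNI each gave 0 calls (0%), with 0, 1, 3 and 0 miRs at an unadjusted p under 0.05. These 4 comparisons also gave 0 calls after the block was added, and 10, 15, 11 and 0 miRs then had an unadjusted p below that limit. The adjusted p-values of the members lay between 0.987 and 1.00 without the block. With the block, over the same comparisons and the added one, the smallest was 0.291.

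Tibial-SNI minus Sural-SNI came to −0.13 for miR-9 (95% confidence interval −1.36 to 1.10), the difference of Sural-SNI against Sham to 0.19 (−0.72 to 1.09) and that of Tibial-SNI against Sham to 0.06 (−0.85 to 0.97). For miR-218 the same differences were 0.03 (−0.87 to 0.93), 0.27 (−0.58 to 1.12) and 0.30 (−0.55 to 1.15). Differences of more than 1.36 units between the SNI groups thus lie outside the interval of both. For miR-129-3p between the SNI groups the difference was −0.60, with an interval from −1.84 to 0.63. The intervals of miR-338-3p against Sham were wider, −3.10 to 4.18 for Sural-SNI and −4.12 to 3.16 for Tibial-SNI, and that of both SNI groups against Sham between the levels ran from −7.91 to 6.60.

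**Figure D4:**
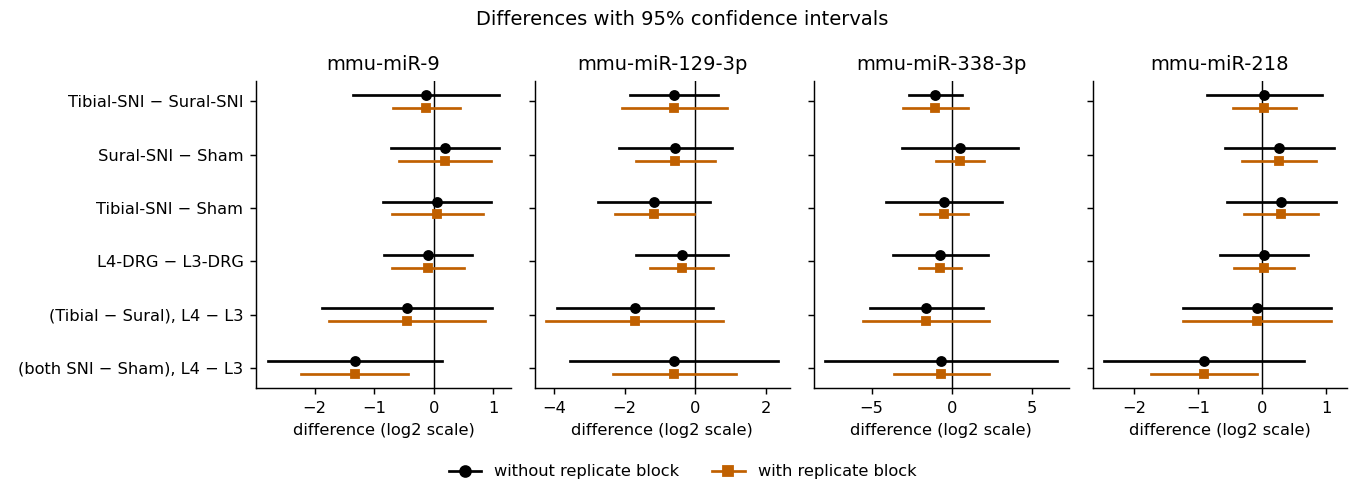
Difference of each of the 4 miRs in the 6 comparisons (first group minus second, log2 scale) with its 95% confidence interval, in black without and in orange with the replicate block. In the comparisons between the levels the block adds the replicate number alone. The horizontal scale differs between panels. Every black interval includes 0, and 3 orange ones do not, those of miR-9 and miR-218 for both SNI groups against Sham between the levels and that of miR-129-3p for Tibial-SNI against Sham.

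Between the DRG levels no member passed the test, and every interval without the replicate block included 0. L4-DRG minus L3-DRG was −0.10 (95% confidence interval −0.84 to 0.64) for miR-9, 0.03 (−0.66 to 0.72) for miR-218 and −0.39 (−1.69 to 0.91) for miR-129-3p. Within groups the mean difference of miR-9 was 0.79 in Sham, −0.31 with Sural-SNI and −0.77 with Tibial-SNI, while that of miR-218 was 0.63, −0.23 and −0.32. For miR-129-3p it was 0.01, 0.27 and −1.45. Tibial-SNI minus Sural-SNI changed from L3-DRG to L4-DRG by −0.45 (−1.88 to 0.98) for miR-9, −0.08 (−1.24 to 1.08) for miR-218, −1.71 (−3.92 to 0.50) for miR-129-3p and −1.59 (−5.14 to 1.96) for miR-338-3p.

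In order of their mean −ΔCt, the 6 groups of miR-9 ran from Tibial-SNI L3-DRG at −0.56 ± 0.05 (SD, n = 2) over Sham L4-DRG at −0.61 ± 0.80, Sural-SNI L3-DRG at −0.66 ± 0.30, Sural-SNI L4-DRG at −0.97 ± 0.56 and Tibial-SNI L4-DRG at −1.33 ± 0.14 to Sham L3-DRG at −1.40 ± 0.28. The arrays of every pair of neighbours in this order overlapped. For miR-338-3p the 6 means lay between −6.62 ± 5.15 in Tibial-SNI L4-DRG and −4.66 ± 2.04 in Sural-SNI L3-DRG. For miR-129-3p they lay between −7.60 ± 1.98 in Tibial-SNI L4-DRG and −5.70 ± 1.22 in Sham L4-DRG, and for miR-218 between −1.61 ± 0.40 in Sham L3-DRG and −0.83 ± 0.03 in Tibial-SNI L3-DRG. Neighbouring groups overlapped in these 3 miRs as well.

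A list of 16 miRs of neurons and myelinating glia, which holds the member miR-218, had values for 6. These were miR-132, miR-134, miR-137, miR-182, miR-183 and miR-218. None passed the test in a comparison. MiR-182 and miR-183 are made from 1 cluster that is known from sensory organs and DRG neurons, and miR-132 from activity-dependent expression in neurons. Between Tibial-SNI and Sural-SNI the median difference of the 6 was 0.16, against 0.10 over all miRs, and 4 of 6 were above 0. The 2 with the largest difference were miR-132 at 0.56 (SE 0.73) and miR-137 at 0.29 (SE 0.49). Against Sham the medians were 0.07 in Sural-SNI and 0.12 in Tibial-SNI, against 0.15 and 0.23 over all miRs. MiR-132 had the largest differences there too, 0.81 and 1.37 (SE 1.88 for both). It was followed by miR-182 at −0.42 in Sural-SNI and by miR-218 at 0.30 in Tibial-SNI.

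Between the levels the 6 had a median of −0.33 in L4-DRG against L3-DRG, against −0.01 over all miRs, led by miR-137 at −0.79 (SE 0.41) and miR-182 at −0.42 (SE 0.25). The difference of Tibial-SNI against Sural-SNI between the levels had a median of 0.28 in the list and −0.02 over all miRs, led by miR-137 at 0.54 and miR-134 at 0.45. For both SNI groups against Sham between the levels, 0 of 6 were above 0, with a median of −0.69 against −0.43 over all miRs. The share of all miRs above 0 was not counted. The 6 include miR-218 at −0.91, whose values were among those seen before this comparison was set. The largest of the list were miR-183 at −1.24 (95% confidence interval −2.47 to −0.01) and miR-137 at −1.02.

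To see which miRs ran most like each member, the level of each miR was taken against the mean of all miRs on its array and correlated over the 12 arrays, which share the replicate numbers and the groups. MiR-9 and miR-218 were each other's nearest, with a Pearson r of 0.72. The next nearest to miR-9 were miR-376a at 0.62 and miR-376c at 0.60, and the next nearest to miR-218 were miR-872 at 0.68 and miR-204 at 0.60. MiR-338-3p ran most like miR-301b at 0.92, miR-27a at 0.89 and miR-497 at 0.89. MiR-129-3p ran most like miR-382 at 0.72, miR-338-3p at 0.71 and miR-497 at 0.67. MiR-9 and miR-338-3p had an r of −0.08 and miR-9 and miR-129-3p one of 0.12, against 0.57 and 0.47 on the −ΔCt scale.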

How the data were processed

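Per the study's methods, the cards were TaqMan Rodent MicroRNA Card A (version 2), run for 40 cycles with no upper Ct, and the authors kept miRs that were detected on every array. The deposited table holds their Ct values without normalization, in 160 wells with 154 miRs and 3 reference assays (MammU6 in 4 wells). A second deposited table holds the authors' fold changes of the SNI arrays against Sham, and it was not used. Ct values carry no read depth, so the number of arrays sets the precision. Groups, levels and replicate numbers came from the labels.

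−ΔCt was computed against the mean of the 3 reference assays, with the MammU6 wells averaged first, and log2(fold change) against the Sham array of the same level and number. The SNI groups were compared with each other on their 8 log2(fold change) values, and SNI with Sham and L4-DRG with L3-DRG on −ΔCt of all 12 arrays with level or group as a covariate. The fits used limma 3.58.1 in R 4.3.3 (lmFit, eBayes), two-sided, with Benjamini-Hochberg adjustment over the 154 miRs, and were tested on simulated data. Exact permutation tests used all 70 splits of 4 against 4 arrays (smallest two-sided p 0.0286). Tables and plots used pandas 2.3.3 and matplotlib 3.10.9.

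Arrays of the same level and number deviated together from their group means (r from 0.46 to 0.81 across miRs in 12 pairs of arrays, against −0.70 to −0.56 in 12 pairs of other numbers). A fit with a replicate block was therefore also made. Between the SNI groups and against Sham it held level and number as a block of 4. In the comparisons between the levels only the replicate number was added to the groups and levels. The miRs and lists were chosen with earlier results of these data known. Named are the members, the reference assays, the 3 miRs most like each member, and on the list of other nervous-system miRs those called and the 2 with the largest difference per comparison. Other names were chosen after their values were seen. Marker lists covered neurons, myelinating glia, skeletal muscle, endothelium, red blood cells and leukocytes. Alternatives were other references, Ct limits of 35 and 32, the block, a correlation between the levels, a variance trend, other Sham terms and covariates, and each array left out.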

Additional observations from a re-analysis of the deposited data

Results flagged for a closer look

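The difference between the DRG levels in both SNI groups against Sham was −1.33 for miR-9 and −0.91 for miR-218, since all 4 SNI arrays of L3-DRG were above their Sham array and all 4 of L4-DRG were below it. The test of this difference did not pass for either miR (limma adjusted p = 0.995 for both), and each level has only 2 Sham arrays.

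Of 20 sets of 4 arrays examined, 3 held an array far from the other 3. Chance marks about 1 set in 20 where arrays are exchangeable, which these are not, since a set holds both DRG levels and both replicate numbers. MiR-338-3p in L4-DRG Tibial-SNI replicate 1 had a log2(fold change) of −2.69, and the other Tibial-SNI arrays had 0.06 to 0.43. MiR-218 in the same array had a −ΔCt of −1.48, and the other Tibial-SNI arrays had −0.86 to −0.81. It lay close to the other L4-DRG replicate 1 arrays, at −1.46 in Sham and −1.61 in Sural-SNI, and its log2(fold change) was −0.02. MiR-129-3p in L4-DRG Sural-SNI replicate 2 had a −ΔCt of −5.83, and the other Sural-SNI arrays had −6.45 to −6.40. Its Sham array, L4-DRG Sham replicate 2, was higher still at −4.84, so its log2(fold change) was −0.99.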

How the results depend on the processing

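The 1 call between Tibial-SNI and Sural-SNI, of no member, fell to 0 with MammU6, snoRNA135, U87, snoRNA135 and U87 together or the miR mean of each array as the reference, with a Ct of at most 35 or 32, with the replicate block, with the mean of the Sham arrays, and with all 12 arrays in one fit. Over the arrays left out in turn it ranged from 0 to 0. At the methods' own threshold, P under 0.09 in a one-tailed unpaired t-test without adjustment, 17 of 154 miRs passed. The tail was taken in the direction seen for each miR, so a share larger than 0.09 can pass by chance. The block changed no other call. No member was called under any alternative that tested it. The Ct limits of 35 and 32 removed miR-129-3p and miR-338-3p, whose Ct reached 35.4 and 36.7, and so tested only miR-9 and miR-218.

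Signs of member differences, all within their intervals, turned as follows. With MammU6 alone, miR-218 between the SNI groups was −0.12, and miR-9 was −0.028 in Tibial-SNI against Sham and 0.087 in L4-DRG against L3-DRG. With the miR mean, miR-218 between the SNI groups was −0.050 and miR-9 in Tibial-SNI against Sham −0.18. For L4-DRG against L3-DRG, the Sham arrays alone gave 0.79 for miR-9 and 0.012 for miR-129-3p, and snoRNA135, alone or with U87, gave −0.15 and −0.064 for miR-218. The change of Tibial-SNI against Sural-SNI between levels in miR-218 was 0.066 with snoRNA135, 0.041 with U87, 0.053 with both and 0.018 with the miR mean. The cause was not tested.

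With each array left out in turn, Tibial-SNI against Sural-SNI ranged from −0.44 to 0.29 for miR-9, −1.19 to 0.046 for miR-129-3p, −1.54 to 0.035 for miR-338-3p and −0.21 to 0.24 for miR-218. Sural-SNI against Sham ranged from −0.053 to 0.57 for miR-9, −0.84 to −0.17 for miR-129-3p, −0.19 to 1.43 for miR-338-3p and 0.048 to 0.57 for miR-218, and Tibial-SNI against Sham from −0.18 to 0.44, −1.71 to −0.44, −1.66 to 1.08 and 0.079 to 0.60. L4-DRG against L3-DRG ranged from −0.35 to 0.028 for miR-9, −0.66 to 0.093 for miR-129-3p, −1.50 to 0.32 for miR-338-3p and −0.17 to 0.18 for miR-218. The change of Tibial-SNI against Sural-SNI between levels ranged from −0.92 to 0.014 for miR-9, −2.80 to −0.63 for miR-129-3p, −3.95 to 0.77 for miR-338-3p and −0.35 to 0.18 for miR-218. Both SNI groups against Sham between levels ranged from −1.89 to −0.77 for miR-9, −1.40 to −0.42 for miR-218, −1.47 to 0.26 for miR-129-3p and −2.81 to 1.51 for miR-338-3p. The fits on −ΔCt held no term for the replicate number, so there a lost array also unbalanced the numbers.

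With 4 arrays a group and 2 a group and level, differences inside the intervals given above were not excluded.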

Other observations

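The lists of other cell types gave these values. The summed −ΔCt of the endothelial miR-126-3p and miR-126-5p ranged from 2.82 to 3.34 in Sham, 2.63 to 3.27 in Sural-SNI and 2.98 to 3.77 in Tibial-SNI. MiR-486, the 1 red blood cell miR with a value, ranged from −3.20 to −0.69 in Sural-SNI and −3.32 to −0.71 in Tibial-SNI, with the Sham arrays inside both ranges. The leukocyte miRs miR-142-3p, miR-150, miR-155 and miR-223 summed to 1.02 to 1.68, 1.23 to 1.78 and 1.06 to 2.04. No miR of these lists, nor of skeletal muscle, was called by limma in any comparison, and the groups overlapped in each list.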
